A study of Homo sapiens with 8 samples.

Results

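Transcripts of the nuclear-encoded structural subunits of respiratory complex I were examined in RKO cells after A20 siRNA or control siRNA. The set was chosen by name, with earlier results of these data known, and holds 36 NDUF genes of the 57992 genes with a deposited count. All 36 were found in the files by Ensembl identifier, and 35 had enough counts to be tested. The exception was NDUFA7, with 3 to 18 reads per sample.

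Complex I, or NADH:ubiquinone oxidoreductase, takes electrons from NADH, passes them through a flavin and a chain of iron-sulfur clusters to ubiquinone, and pumps protons across the inner mitochondrial membrane. It is L-shaped, with a matrix arm that carries the electron-transfer machinery and a membrane arm that carries the proton channels. The membrane core is encoded by mitochondrial DNA, whereas the matrix core and all accessory subunits are encoded in the nucleus and imported, so the complex needs products of both genomes. Colonic epithelial cells depend on this chain to oxidise butyrate, and many tumor cell lines retain it.

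RKO is an established human colon carcinoma line, and the study asked how loss of A20, the ubiquitin-editing enzyme encoded by TNFAIP3, alters transcripts after wnt3a. Both groups received recombinant wnt3a at 50 ng/mL for 24 hours. They differed in the siRNA, either control (4 samples) or A20 (4 samples), and no unstimulated or untransfected group was analysed here. The knockdown was partial and transient, in a single cell line.

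TNFAIP3 measured 5.47 ± 0.388 CPM (SD, n = 4) with control siRNA and 3.33 ± 0.215 CPM (SD, n = 4) with A20 siRNA, so 60.8% of the control level remained (log2 fold change -0.71, SE 0.095, edgeR adjusted p = 0.00258). CPM is a gene's count scaled to the effective library size, and SE is the standard error of a log2 fold change. Total counts were 21226451 to 34194273 per sample, and 3 counts, a floor set for this report, corresponded to 0.0877 to 0.141 CPM. Of the colonic epithelial markers, KRT18, KRT8, EPCAM and CDX2 were expressed, whereas KRT19, KRT20, CDH1 and VIL1 had at most 1 read in any sample. Fibroblast and endothelial markers had at most 4 reads, and the only leukocyte marker above 1 read was CD68, at 18 to 35 reads. Across all genes, deviations from the mean level followed exonic length in most samples. Spearman's rho was 0.09, -0.17, -0.11 and -0.20 in control replicates 1 to 4, and 0.08, -0.08, 0.16 and 0.19 in A20 siRNA replicates 1 to 4. Control replicate 1 and A20 siRNA replicate 2 thus had a sign opposite to the rest of their group. Values without both samples are given below.

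A20 siRNA was accompanied by small differences in the complex I transcripts, and most of them pointed down. Of the 35 subunits tested, 31 had a log2 fold change below 0, against 48.4% of all 13412 genes tested, and the median was -0.07, or 95.2% of the control level. The median over all genes was 0.00. NDUFS5, a cysteine-rich subunit of the proximal membrane arm that faces the intermembrane space, was the single member that passed the adjusted threshold of 0.05 in the lower direction, and no member passed in the higher direction (edgeR quasi-likelihood test, Benjamini-Hochberg over all genes). The background was 0.611% of genes called lower and 0.634% called higher, and a count of 1 is too small to be read against it. DESeq2 called 4 members lower, against 0.91% of all genes. Without a low-count filter 9 were called, against 1.08% of a larger set of 28754 genes that includes those with very few reads. At an unadjusted p-value under 0.05, 15 of 35 subunits were lower and none higher, whereas 7.37% of all genes were lower and 8.81% higher by that rule. In 8 of the 35 every A20 siRNA sample lay below every control sample, against 3.9% of all genes, and in none did every A20 siRNA sample lie above, against 3.71%. In a bulk measurement such as this, fewer cells expressing a transcript and less transcript per cell cannot be told apart. The number of called members rested on single libraries. It was 7 without control replicate 1 (3.18% of all genes called lower), 4 without A20 siRNA replicate 1 (1.12%) and 6 without A20 siRNA replicate 2 (1.14%). It was 1 without control replicate 3 (0.192%), and 0 without control replicate 2 (0.0517%), control replicate 4 (0.0516%), A20 siRNA replicate 3 (0.0443%) or A20 siRNA replicate 4 (0.185%). Without control replicate 1 and A20 siRNA replicate 2 together it was 9, in a fit that called 3.61% of all genes lower, and the median log2 fold change of the subunits was then -0.11. Those 2 samples were chosen by their length trend. Among the samples kept, rho with exonic length was below 0 in every control and above 0 in every A20 siRNA sample. The part of length in these values was not tested.

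**Figure D1:**
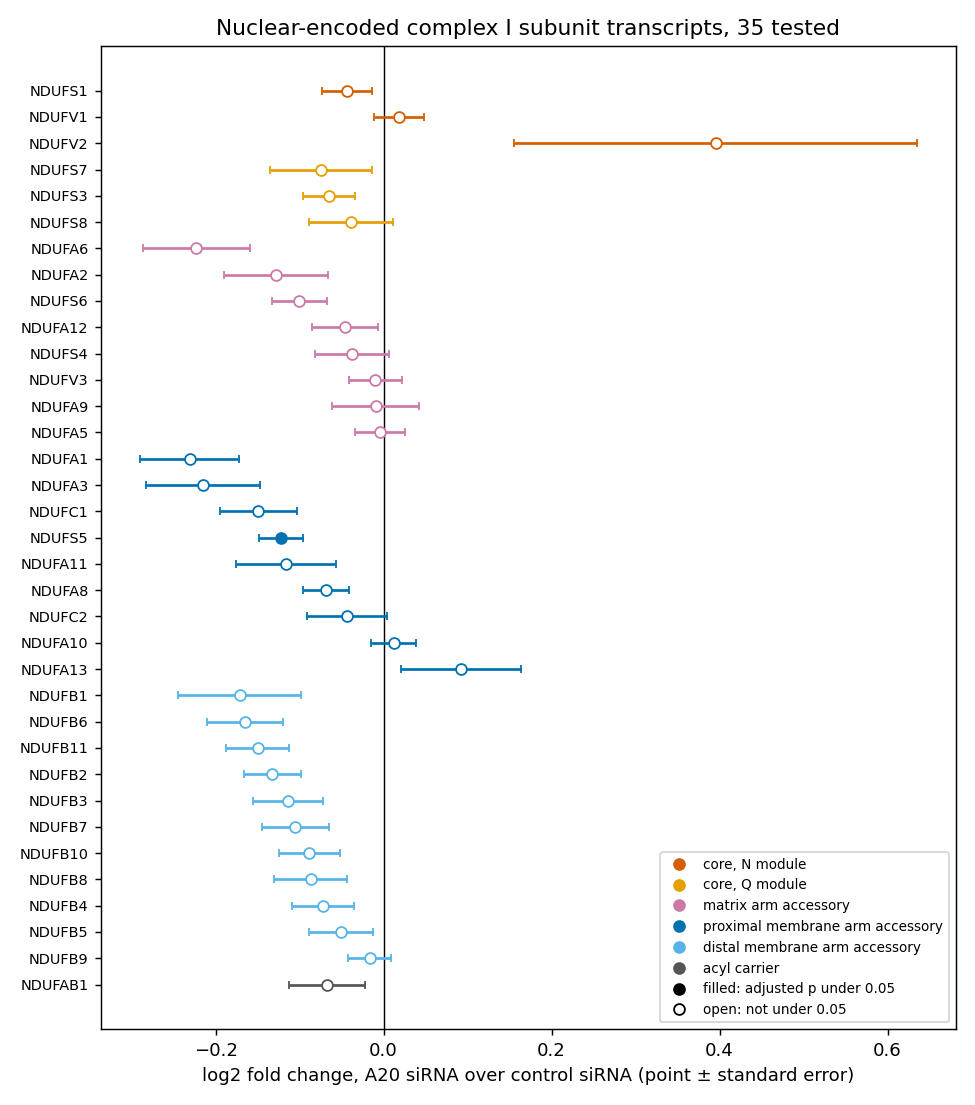
Log2 fold change of each of the 35 tested subunit transcripts (x axis, A20 siRNA over control siRNA, point ± standard error, 4 samples per group), coloured by place in the complex and filled where the adjusted p-value was under 0.05. The only filled point is NDUFS5, 31 points lie below 0, and NDUFV2, at 0.40, has the widest error bar.

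The 6 subunits of smallest p-value were NDUFS5, NDUFB11, NDUFB2, NDUFA1, NDUFB6 and NDUFA6, of which 5 belong to the membrane arm. NDUFS5 (ENSG00000168653.10, chromosome 1, 39026318 to 39034636, GRCh38) was at 169.6, 168, 164 and 174 CPM in control replicates 1 to 4 and at 159.9, 159, 150.3 and 151 CPM in A20 siRNA replicates 1 to 4. The highest A20 siRNA sample was below the lowest control sample. The means were 169 ± 4.38 and 155 ± 5.06 CPM (SD, n = 4 each), which gives -0.12 on the log2 scale (SE 0.027, adjusted p = 0.0334). When a sample was left out the adjusted p-value of NDUFS5 lay between 0.0123 and 0.126, and it was 0.102 without control replicate 2, 0.126 without control replicate 4, 0.121 without A20 siRNA replicate 3 and 0.0906 without A20 siRNA replicate 4.

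NDUFB11 (chromosome X, 47142071 to 47145466), a membrane-spanning subunit of the distal arm, was at 57.5, 58.6, 56.8 and 60.3 CPM in the control samples and at 52.9, 56.5, 51.4 and 48.7 CPM with A20 siRNA. The groups did not overlap, but A20 siRNA replicate 2 lay close to the lowest control. The fitted difference was -0.15 on the log2 scale (SE 0.038, adjusted p = 0.0542). NDUFB2 (chromosome 7, 140690777 to 140722790), also of the distal arm, was at 79.5, 86.2, 81.4 and 85.8 CPM in the controls and at 77.1, 79.4, 74.1 and 71.98 CPM with A20 siRNA. These groups lay next to each other without overlap, and differed by -0.13 on the log2 scale (SE 0.034, adjusted p = 0.0554).

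NDUFA1 (chromosome X, 119871832 to 119876662), a small X-linked subunit of the proximal membrane arm that is needed for assembly, was at 48.3, 47.6, 44.6 and 47.7 CPM in the controls and at 45.4, 42.0, 37.0 and 34.3 CPM with A20 siRNA. A20 siRNA replicate 1 lay inside the control range, while replicates 3 and 4 lay well below it. Among the 35 tested subunits its difference of -0.23 (log2, SE 0.059, adjusted p = 0.0562) was the most negative. NDUFB6 (chromosome 9, 32553001 to 32573184) was at 63.3, 64.4, 65.0 and 69.5 CPM in the controls and at 61.0, 63.2, 55.3 and 52.8 CPM with A20 siRNA. Replicates 1 and 2 again sat next to the controls and replicates 3 and 4 apart from them. The difference was -0.16 (log2, SE 0.045, adjusted p = 0.0689).

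NDUFA6 (chromosome 22, 42085526 to 42090884) is a matrix arm subunit of the LYR family that holds a copy of the acyl carrier protein. It was at 17.6, 19.3, 18.4 and 20 CPM in the controls and at 17.1, 17.5, 13.8 and 15.6 CPM with A20 siRNA, or -0.22 on the log2 scale (SE 0.064, adjusted p = 0.0834). The groups did not overlap, but A20 siRNA replicate 2 and control replicate 1 lay close together.

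**Figure D2:**
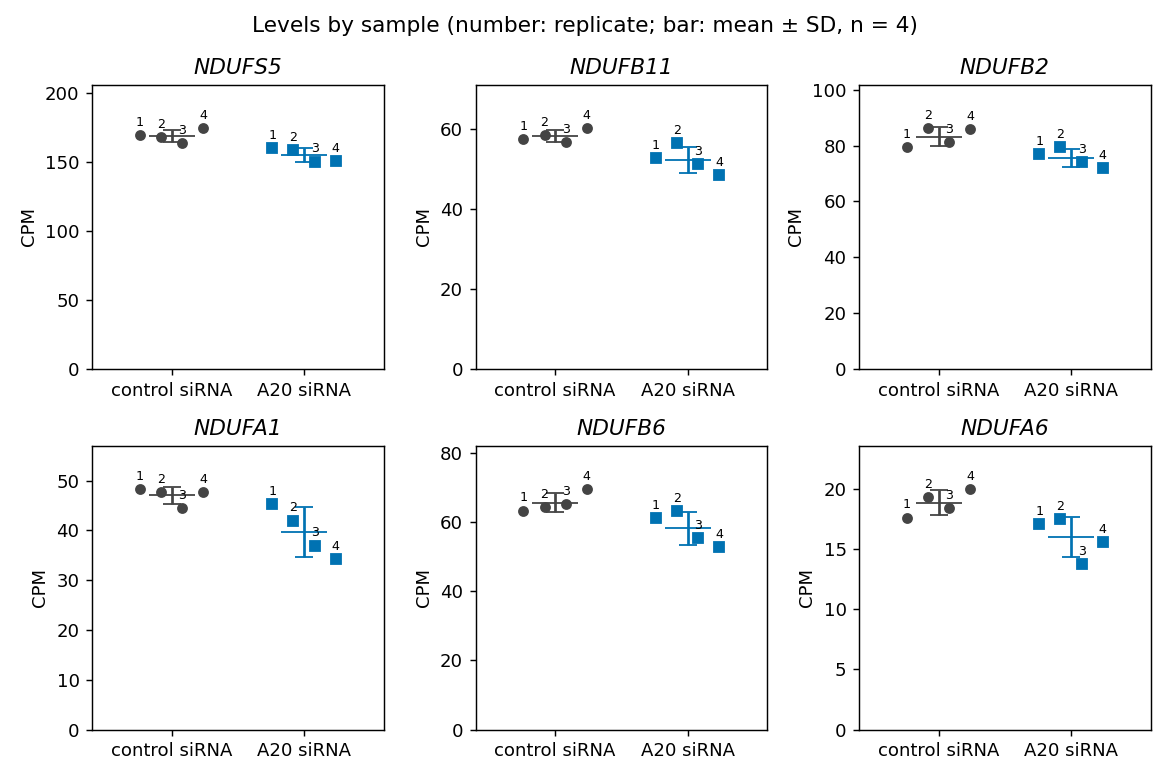
Level in CPM (y axis, from 0) of the 6 subunit transcripts of smallest p-value in each of the 4 control siRNA (circles) and 4 A20 siRNA (squares) samples, with replicate numbers and mean ± SD. NDUFS5 falls from 169 to 155 CPM on average, and in NDUFA1 and NDUFB6 A20 siRNA replicates 3 and 4 lie lowest.

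Nuclear genes of the respiratory chain are known to share promoter elements for NRF1, ETS-family factors such as GABP, YY1 and the estrogen-related receptors. The RefSeq promoter table (GRCh38.p14, 250 bases before to 50 bases after the transcription start) held an entry for 32 of the 36 subunits. It had none for NDUFS5, NDUFB5, NDUFB9 and NDUFC2. Where a gene had several entries, the entry nearest to the start of the canonical GENCODE transcript was used. The 4 entries with the smallest p-values and the 2 with log2 fold changes nearest 0 are shown so that the promoters of both kinds of subunit can be set side by side. Capitals mark any match, on either strand, to GCGCA followed by any base and GCGC (NRF1), CCGGAAG (ETS), AAGATGG (YY1), AAGGTCA (estrogen-related receptors), GGGCGG (SP factors) or TATAAA (core of the TATA box). The windows are chrX:47144653-47144952 (minus strand), chr7:140696458-140696757 (plus strand), chrX:119871582-119871881 (plus strand), chr9:32573110-32573409 (minus strand), chr7:123557769-123558068 (minus strand) and chr12:4648864-4649163 (plus strand), in the order shown.
NDUFB11: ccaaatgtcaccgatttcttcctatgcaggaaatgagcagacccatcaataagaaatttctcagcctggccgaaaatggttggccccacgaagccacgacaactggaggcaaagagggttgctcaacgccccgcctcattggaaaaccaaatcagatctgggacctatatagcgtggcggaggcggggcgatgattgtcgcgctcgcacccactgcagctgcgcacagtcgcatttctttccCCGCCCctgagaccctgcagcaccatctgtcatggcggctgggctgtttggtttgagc
NDUFB2: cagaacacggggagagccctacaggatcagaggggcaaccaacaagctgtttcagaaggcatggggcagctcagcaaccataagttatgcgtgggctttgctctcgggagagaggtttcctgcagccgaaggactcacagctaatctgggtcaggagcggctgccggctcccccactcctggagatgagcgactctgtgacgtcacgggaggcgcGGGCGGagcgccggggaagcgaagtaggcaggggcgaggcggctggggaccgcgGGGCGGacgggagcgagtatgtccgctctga
NDUFA1: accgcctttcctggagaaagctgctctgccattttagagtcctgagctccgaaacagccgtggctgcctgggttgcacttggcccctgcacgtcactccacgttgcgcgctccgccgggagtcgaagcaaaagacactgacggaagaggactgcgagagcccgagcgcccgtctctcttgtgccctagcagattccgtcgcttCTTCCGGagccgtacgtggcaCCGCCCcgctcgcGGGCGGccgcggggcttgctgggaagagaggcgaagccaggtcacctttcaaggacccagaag
NDUFB6: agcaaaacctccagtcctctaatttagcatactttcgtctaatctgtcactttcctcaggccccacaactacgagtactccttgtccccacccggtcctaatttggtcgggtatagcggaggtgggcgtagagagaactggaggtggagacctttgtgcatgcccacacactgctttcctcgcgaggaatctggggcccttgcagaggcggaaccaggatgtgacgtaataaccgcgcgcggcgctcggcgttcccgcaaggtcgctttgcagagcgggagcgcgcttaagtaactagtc
NDUFA5: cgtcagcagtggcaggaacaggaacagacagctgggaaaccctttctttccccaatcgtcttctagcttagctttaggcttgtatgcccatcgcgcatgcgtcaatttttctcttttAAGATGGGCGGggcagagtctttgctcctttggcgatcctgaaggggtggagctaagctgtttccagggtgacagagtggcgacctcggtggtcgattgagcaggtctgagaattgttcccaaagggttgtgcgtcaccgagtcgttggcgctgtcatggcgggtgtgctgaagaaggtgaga
NDUFA9: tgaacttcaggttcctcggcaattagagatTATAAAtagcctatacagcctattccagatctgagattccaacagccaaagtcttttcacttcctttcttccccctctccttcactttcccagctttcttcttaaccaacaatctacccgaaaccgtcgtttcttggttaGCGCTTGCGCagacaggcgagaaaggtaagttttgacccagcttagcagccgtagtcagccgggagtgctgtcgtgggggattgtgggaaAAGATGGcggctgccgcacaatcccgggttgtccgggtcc

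In these windows NDUFB11 held 1 match to the SP motif, NDUFB2 held 2, and NDUFA1 held 2 beside 1 ETS match. The window of NDUFB6 held none of the motifs. NDUFA5, whose log2 fold change was 0.00, held a YY1 match that overlaps an SP match, and NDUFA9, at -0.01, held matches to the NRF1, YY1 and TATA motifs. Over all 32 subunit promoters the YY1 letters were present in 9 (28.1%), against 6.56% of 15344 promoters of protein-coding genes. The NRF1 letters were present in 6 (18.8%, against 8.87%), the estrogen-related receptor letters in 3 (9.38%, against 2.87%), the ETS letters in 5 (15.6%, against 14.8%), the SP letters in 21 (65.6%, against 61.8%) and the TATA letters in 3 (9.38%, against 9.41%). A match is only a description of the letters in this window.

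None of the 6 core subunits of the matrix arm passed the adjusted threshold, and in all 6 the groups overlapped. NDUFV1 (chromosome 11, 67605653 to 67612554) binds NADH and the flavin. It was at 125, 128, 124 and 129 CPM in the controls and at 131, 134, 123 and 122 CPM with A20 siRNA, so the A20 siRNA samples spread to both sides of the control range. Its log2 fold change was 0.02, with a 95% interval of -0.04 to 0.08.

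NDUFS1 (chromosome 2, 206114817 to 206159509), the largest core subunit of the input module and a carrier of iron-sulfur clusters, was at 71.3, 72.6, 67.9 and 70.4 CPM in the controls and at 70.0, 67.9, 66.5 and 69.3 CPM with A20 siRNA. The groups overlapped, with a log2 fold change of -0.04 (95% interval -0.10 to 0.02). NDUFV2 (chromosome 18, 9102630 to 9134345), a further iron-sulfur subunit of this module, had between 16 and 39 reads. Its levels were 1.30, 0.705, 0.617 and 1.23 CPM in the controls and 1.11, 1.00, 1.35 and 1.79 CPM with A20 siRNA. The log2 fold change of 0.40 had a 95% interval of -0.11 to 0.90, so a difference in NDUFV2 was not detectable with so few reads.

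The ubiquinone module is represented by NDUFS3, NDUFS7 and NDUFS8. NDUFS7 (chromosome 19, 1383527 to 1395589), which carries the last cluster before ubiquinone, was at 13.0, 11.8, 11.2 and 12.4 CPM in the controls and at 11.8, 11.8, 11.5 and 10.8 CPM with A20 siRNA, or, on the log2 scale, -0.07 (95% interval -0.20 to 0.05). NDUFS8 (chromosome 11, 68030617 to 68036644), a further cluster-binding subunit, was at 42.1, 45.7, 43.9 and 44.1 CPM in the controls and at 45.0, 46.8, 38.9 and 39.2 CPM with A20 siRNA, or, on the log2 scale, -0.04 (95% interval -0.14 to 0.07). In NDUFS8, A20 siRNA replicates 3 and 4 lay below every control, while replicate 1 was inside the control range and replicate 2 above it.

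NDUFS3 (chromosome 11, 47565336 to 47584562), a scaffold subunit of the ubiquinone module on which assembly begins, was at 81.6, 81.9, 78.9 and 84.8 CPM in the controls and at 77.3, 82.5, 77.1 and 75.4 CPM with A20 siRNA. Only A20 siRNA replicate 2 reached the control range. The difference was -0.07 (log2, SE 0.031, adjusted p = 0.309).

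Of the 9 accessory subunits of the matrix arm 8 were tested. All 8 had a log2 fold change below 0, from -0.22 to 0.00, and none passed the adjusted threshold. Beside NDUFA6, the zinc-binding subunit NDUFS6 had groups that did not overlap, with means of 57.3 ± 1.06 and 53.3 ± 2.10 CPM (SD, n = 4 each, log2 fold change -0.10, adjusted p = 0.124). NDUFA2, which has a thioredoxin-like fold, was at -0.13 (adjusted p = 0.32), and NDUFA12 and NDUFS4, both needed to attach the input module, were at -0.05 and -0.04. NDUFV3, NDUFA9 and NDUFA5 lay between -0.01 and 0.00, and their sign turned when certain single samples were left out. NDUFA7 had 6, 9, 5 and 6 reads in the controls and 18, 7, 3 and 5 with A20 siRNA, with a single high sample. It was at 0.250 ± 0.0737 CPM with control siRNA and 0.283 ± 0.171 CPM with A20 siRNA (SD, n = 4 each), too few reads for a test.

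The accessory subunits of the membrane arm, which surround the proton channels, had the more negative median. All 20 were tested, 18 had a log2 fold change below 0, 12 had an unadjusted p-value under 0.05 in the lower direction, and the median was -0.11. The 14 tested matrix arm subunits had 3 at that unadjusted threshold and a median of -0.04. The membrane arm subunits were also shorter, with a median of 2282.5 bases of exon against 4790 bases for the matrix arm. With the length and GC correction described below, the medians were -0.09 for the membrane arm and -0.06 for the matrix arm. A difference between the arms was not tested. In the proximal part, NDUFA3 had 17.6 ± 1.08 CPM in the controls and 14.9 ± 1.70 CPM with A20 siRNA (SD, n = 4 each), at -0.22 on the log2 scale (adjusted p = 0.115) and without overlap. NDUFC1 had 71.7 ± 2.24 and 64.2 ± 5.82 CPM, at -0.15 (adjusted p = 0.104). NDUFA8, like NDUFS5 a cysteine-rich subunit of the intermembrane space side, was at -0.07 with groups that did not overlap (adjusted p = 0.21). NDUFA11 was at -0.12 and NDUFC2 at -0.04. The kinase-fold subunit NDUFA10 was at 0.01, and NDUFA13, also known as GRIM-19, was at 0.09 (adjusted p = 0.567).

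All 11 subunits of the distal part had a log2 fold change below 0, with a median of -0.11. With the length and GC correction that median was -0.07. The most negative value was that of NDUFB1, at -0.17, with a wide error (SE 0.074, adjusted p = 0.251). NDUFB3 was at -0.11, and NDUFB7 and NDUFB10, which are held by disulfide bonds on the intermembrane space side, were at -0.11 and -0.09. NDUFB8, NDUFB4 and NDUFB5 lay at -0.09, -0.07 and -0.05. NDUFB9, another LYR protein, was the most abundant subunit before scaling for length, at 217 ± 4.97 CPM with control siRNA and 215 ± 6.69 CPM with A20 siRNA (SD, n = 4 each), and its log2 fold change was -0.02. NDUFAB1, the mitochondrial acyl carrier protein that sits in both arms and also serves lipoic acid synthesis, was at -0.07 (adjusted p = 0.492).

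Between transcripts of the complex the levels differed far more than between the groups. Scaled by the union of annotated exons, NDUFS5 was the most abundant in the controls, at 308 CPM per kb, and NDUFA7 the least, at 0.179 CPM per kb. With the length of the canonical transcript, which was chosen after the values were seen, they remained the extremes, at 341 and 0.430 CPM per kb, and NDUFB9 (314 ± 7.19 CPM per kb, SD, n = 4) came next to NDUFS5 (341 ± 8.85 CPM per kb). In 8 subunits over 50% of the coding bases also lie in exons of another gene of GENCODE release 44, often a read-through transcript. They were NDUFV2, NDUFA7, NDUFA9, NDUFA11, NDUFA13, NDUFC2, NDUFB5 and NDUFB8. Their median control level was 13 CPM per kb of canonical transcript, against 86.6 CPM per kb for the other 28 subunits. For NDUFV2 and NDUFA7 the overlap was 100% of the coding bases. Reads that fall on 2 genes may be left uncounted, and this was not tested, so low levels of these 8 are uncertain. The 55 named pseudogenes of 18 subunits took few reads, with a highest count of 26 in any sample, for NDUFV2P1, and 4 or fewer for the other 54. Only uniquely mapping reads were counted, so reads that match both a subunit and its pseudogene are in neither count. Such losses were not tested.

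**Figure D3:**
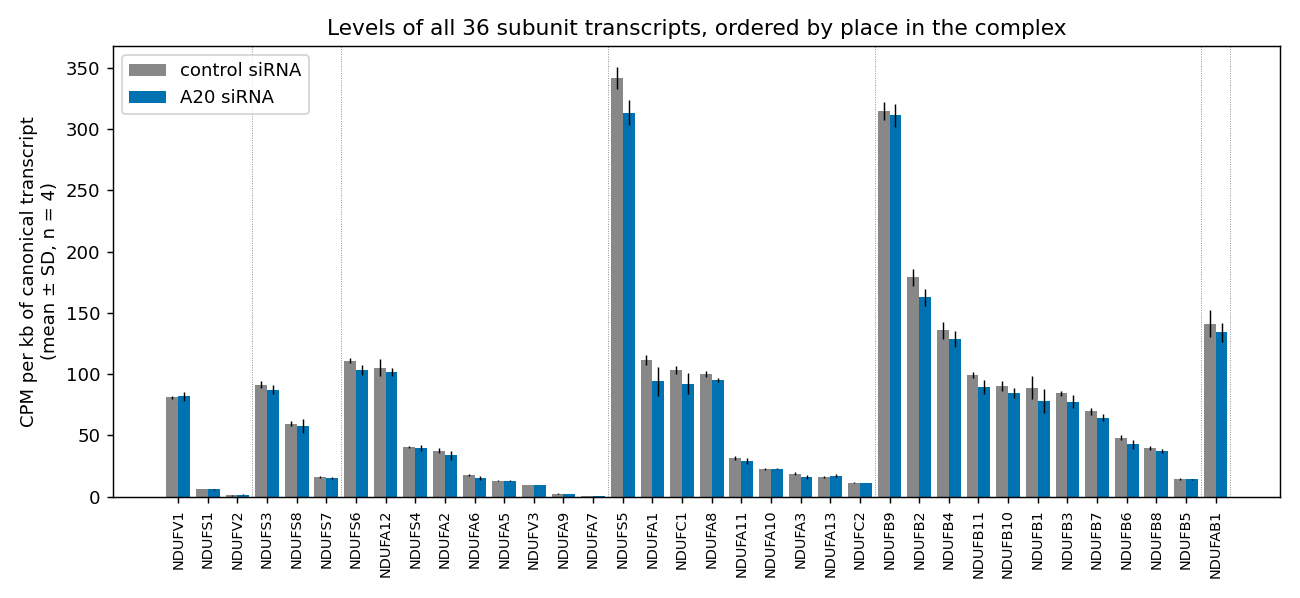
Level of all 36 subunit transcripts in CPM per kb of canonical transcript (y axis, bars from 0, mean ± SD, n = 4) with control siRNA (grey) and A20 siRNA (blue), grouped by place in the complex by dotted lines. NDUFS5 (341 in the controls) and NDUFB9 (314) stand above the rest, and NDUFV2 and NDUFA7 are near 0.

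The differences were spread unevenly over the 4 A20 siRNA samples. The 36 transcripts together took 0.204%, 0.209%, 0.204% and 0.213% of counts in control replicates 1 to 4 and 0.202%, 0.205%, 0.193% and 0.192% in A20 siRNA replicates 1 to 4. A20 siRNA replicate 2 lay within the control range and replicates 3 and 4 were the lowest of the 8 samples. Relative to the control mean, the median subunit was at -0.03, 0.01, -0.03 and 0.05 on the log2 scale in the controls, at -0.04 in both A20 siRNA replicates 1 and 2, and at -0.13 and -0.12 in replicates 3 and 4. A20 siRNA replicates 3 and 4 were the lowest sample for 26 of the 35 subunits, 13 each, and control replicate 4 was the highest for 19. The same samples stood at the ends of the length trend, with a rho of 0.16 and 0.19 in A20 siRNA replicates 3 and 4 and of -0.20 in control replicate 4. The median coefficient of variation within groups was 4.02% in the controls and 4.43% with A20 siRNA, and it was larger with A20 siRNA in 23 of the 35 subunits. Between replicates the median subunit difference had an SD of 0.0427 on the log2 scale, beside a median log2 fold change of -0.07.

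**Figure D4:**
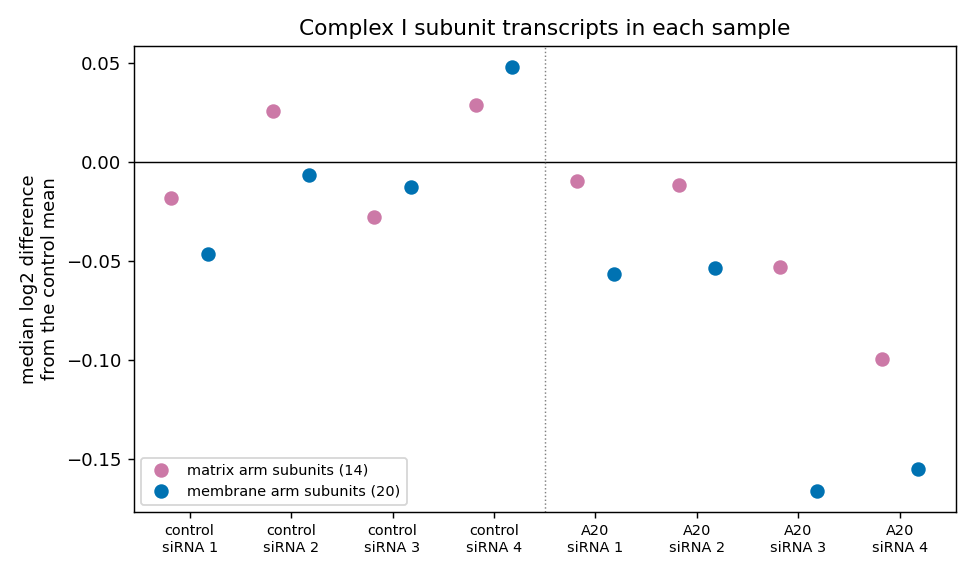
Median log2 difference from the control mean (y axis) of the 14 tested matrix arm subunits and the 20 membrane arm subunits in each of the 8 samples (x axis). In A20 siRNA replicates 3 and 4 the membrane arm median is at -0.17 and -0.16, while replicates 1 and 2 are at -0.06 and -0.05, next to control replicate 1 at -0.05.

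Exonic length moved with these values. The tested subunits were short. Their median was 2708 bases of exon, the median of all tested genes was 4982, and 25 of 35 lay below the latter. Across the 35 subunits, those with more bases of exon had less negative log2 fold changes (Spearman's rho 0.55, a description over transcripts that share the same 8 libraries). With the length of the longest coding transcript instead, that rho was 0.38. Across all genes with an exonic length the rho was 0.18. A correction of each sample for its trend with exonic length and GC content was then applied. With it the rho with exonic length was 0.00 over all genes and 0.32 over the subunits. The median of the subunits was then -0.06, against -0.07 without it. The corrected fit called 5 subunits lower, against 1.33% of all genes, namely NDUFS5 (-0.11, adjusted p = 0.0143), NDUFA1 (-0.23, adjusted p = 0.0154), NDUFB11 (-0.15, adjusted p = 0.0225), NDUFB2 (-0.13, adjusted p = 0.0339) and NDUFB6 (-0.16, adjusted p = 0.0463).

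**Figure D5:**
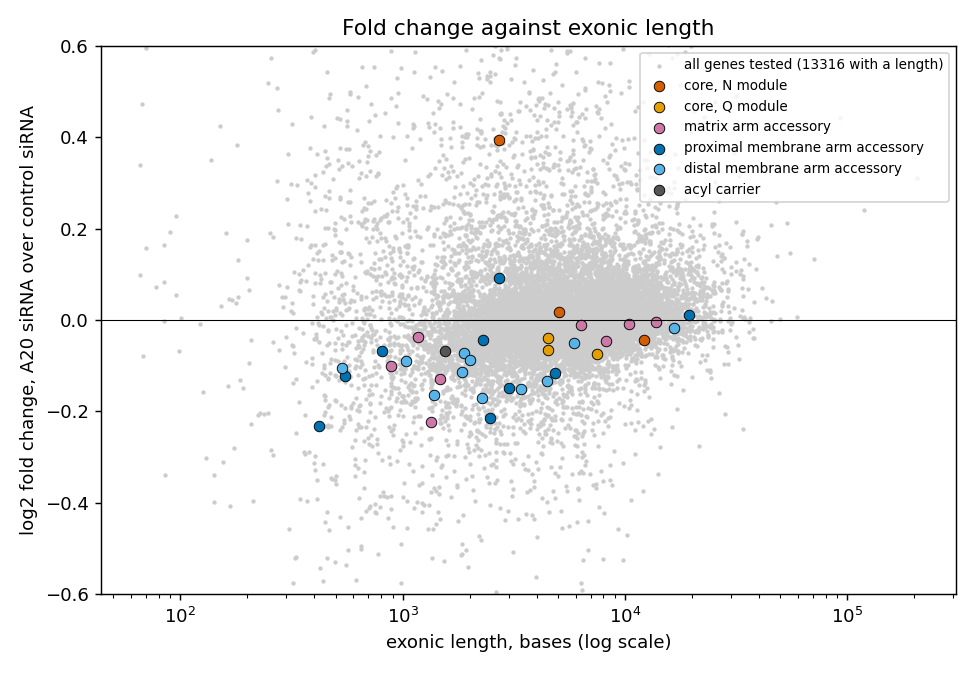
Log2 fold change (y axis) against exonic length in bases (x axis, log scale) for the 35 tested subunits, coloured by place in the complex, over 13316 tested genes with a length in grey. The shortest subunit, NDUFA1 with 421 bases, has the most negative value of -0.23, and 113 of the grey genes lie beyond the limits of 0.6 in either direction and are not drawn.

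The rest of the pathway was examined with lists of related genes. The 7 mitochondrially encoded subunits of complex I, which form its membrane core, pointed the other way. All 7 had a log2 fold change above 0, with a median of 0.25, and 5 passed the adjusted threshold in the higher direction, against 0.634% of all genes. MT-ND5, a proton-channel subunit, rose from 1114 ± 94.7 CPM to 1349 ± 68.8 CPM (SD, n = 4 each, log2 fold change 0.28, SE 0.044, adjusted p = 0.00737). MT-ND2, MT-ND1, MT-ND4 and MT-ND6 also passed, at 0.27, 0.25, 0.25 and 0.27, and MT-ND3 and MT-ND4L did not, at 0.06 and 0.05. MT-ND3 and MT-ND4L were also the shortest of the 7, with 346 and 297 bases of exon, and the part of length was not tested. The number of the 7 that passed was 4 without control replicate 2 and 3 without control replicate 4. It was 1 without A20 siRNA replicate 3, 3 without A20 siRNA replicate 4, and 5 when any other single sample was left out. Over all genes, calls higher were 11 of 13545 without control replicate 2 and 9 of 13567 without control replicate 4. They were 6 of 13542 without A20 siRNA replicate 3, 26 of 13537 without A20 siRNA replicate 4, and 19 to 567 in the other fits.

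None of the 20 assembly factors, which build the complex without remaining in it, passed, and 12 of 20 were below 0, with a median of -0.02. By unadjusted p-value under 0.05 there were 3 lower and none higher. NUBPL, which supplies iron-sulfur clusters to complex I, had the largest absolute difference, at -0.14 (adjusted p = 0.275). DESeq2 and limma-voom also called none of the assembly factors.

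The 41 nuclear-encoded subunits of complexes II to V had 37 members below 0 and a median of -0.07, as in complex I. At an unadjusted p-value under 0.05, 25 of the 41 were lower and none higher, against 7.37% and 8.81% of all genes. After adjustment 4 of the 41 passed in the lower direction, against 0.611% of all genes. They were ATP5MC2, a subunit of the ATP synthase rotor (179 ± 10.1 against 162 ± 5.06 CPM, SD, n = 4 each, log2 difference -0.14, adjusted p = 0.0384), NDUFA4, which is named after complex I but is now placed in complex IV (118 ± 4.08 against 105 ± 7.97 CPM, log2 difference -0.17, adjusted p = 0.0416), and the complex IV subunits COX5B (-0.16, adjusted p = 0.0467) and COX8A (-0.17, adjusted p = 0.0467). That count also rested on single libraries. It was 16 without control replicate 1 (3.18% of all genes called lower), 10 without A20 siRNA replicate 1 (1.12%) and 9 without A20 siRNA replicate 2 (1.14%). It was 0 when any other single sample was left out (0.0443% to 0.192%).

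The transcription factors and coactivators known to act on respiratory chain genes gave no call among the 8 tested. NRF1, GABPA, YY1 and ESRRA were at -0.06, 0.02, 0.01 and 0.03, and PPARGC1B, a coactivator of mitochondrial biogenesis, had the largest absolute difference, at 0.11 (34.99 ± 1.40 against 37.9 ± 1.37 CPM, SD, n = 4 each, adjusted p = 0.154). At an unadjusted p-value under 0.05, 2 of the 8 were higher and none lower, and neither DESeq2 nor limma-voom called any of them. PPARGC1A had at most 2 reads in any sample.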

How the data were processed

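RNAseq counts of 8 RKO samples were analysed, 4 with control siRNA and 4 with A20 siRNA, grouped and numbered by their labels. The authors prepared libraries from RNA isolated by poly(A) capture. They trimmed reads with Trimmomatic, mapped them to GRCh38.p7 with STAR and deposited raw counts of uniquely mapping reads per gene. The GENCODE release and strand setting are not given in the sources used here, so antisense reads cannot be told apart. No source says whether replicates were separate cultures, and p-values may cover technical spread only. Floors cover counting error only.

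Counts were normalized by TMM and filtered with filterByExpr (minimum count 10) in edgeR 4.0.16 (R 4.3.3). The quasi-likelihood test had no covariates, with Benjamini-Hochberg adjustment over all 13412 genes. Symbols, coordinates and lengths came from GENCODE release 44 (GRCh38), and 56948 of 57992 identifiers matched. Levels are CPM, or CPM per kb of exons. All replicate pairs differed by more than sampling noise (chi-square per degree of freedom 1.32 to 3.67).

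The subunits, lists and rules were chosen with earlier results of these data known. Values per sample are given for the core subunits, for the 6 subunits of smallest p-value, and for the extremes of level. In other lists the genes that passed, or else the largest difference, are named. Further genes were named after their values were seen. Alternatives were RLE normalization, other count filters, DESeq2 1.42.0, limma-voom (limma 3.58.1), the replicate number as a block, a loess correction for exonic length and GC content (span 0.5), and samples left out. The pipeline was tested on simulated data.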

Additional observations from a re-analysis of the deposited data

Results flagged for a closer look

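In 74 sets of 4 values (TNFAIP3 and each of the 36 subunits, in each group) 2 had a single sample far from the others by Dixon's ratio, and chance flags about 1 in 20 sets, or 3.7. NDUFS4 was at 23.8 CPM in A20 siRNA replicate 4, while the other A20 siRNA samples were at 26.9 to 27.4 CPM, with a distance to its nearest neighbour of 0.883 of the whole range. TNFAIP3 was at 3.01 CPM in A20 siRNA replicate 2, while replicates 1, 3 and 4 were at 3.40 to 3.47 CPM, a distance of 0.847 of the range.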

How the results depend on the processing

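The median log2 fold change of the 35 subunits was below 0 in all alternatives run, from -0.093 to -0.054 with a single sample left out and at -0.11 without control replicate 1 and A20 siRNA replicate 2. In the last of these fits the length trend had opposite signs in the 2 groups. Against 1 subunit called lower, DESeq2 called 4, the length and GC correction 5, the fit without a low-count filter 9, and the fit without control replicate 1 and A20 siRNA replicate 2 called 9. With a single sample left out it was 0 to 7. No subunit was called higher in any of these fits. RLE normalization (0.708% of all genes lower), the stricter filter (0.602%) and limma-voom (0.626%) each called the 1 subunit, NDUFS5. Over all genes, 82 lower and 85 higher became 310 and 314 with no filter on counts, 179 lower after the length and GC correction, 483 and 614 without control replicate 1 and A20 siRNA replicate 2, and 6 to 430 lower and 6 to 567 higher with a single sample left out. TNFAIP3 kept its direction and its call wherever an adjusted p-value was given, from -0.77 to -0.67 with a sample left out. DESeq2 gave it none, at -0.72. The causes were not tested.

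The replicate numbers were not taken as pairs. Deviations of same-numbered samples correlated by -0.023 to 0.10, and 3 of 4 control and 2 of 4 A20 siRNA samples correlated best with their own number. With the replicate block 7 subunits were called, with 212 genes lower (1.58%), 262 higher, and 11 of complexes II to V. With the replicate block and the length and GC correction together these were 7, 305 (2.27%), 196 and 12.

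For the 41 subunits of complexes II to V, against 4 called, the count was 16 with no filter on counts (1.08% of all genes lower). It was 2 under the stricter filter (0.602%), 7 by DESeq2 (0.91%), 2 by limma-voom (0.626%) and 8 after the length and GC correction (1.33%). With a single sample left out it was 0 to 16, and without control replicate 1 and A20 siRNA replicate 2 it was 20 (3.61%). Omitting that pair also gave 1 assembly factor lower and 1 regulator higher. Mitochondrially encoded complex I genes called higher numbered 3 by DESeq2, beside 83 over all genes. They numbered 1 to 5 with a sample left out, beside 6 to 567 over all genes.

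Signs changed for 6 subunits near 0, none of them called. NDUFA10 was at -0.040 after the length and GC correction and at -0.038 with the replicate block added. With control replicate 1 and A20 siRNA replicate 2 both left out, NDUFV1 was at -0.013 and NDUFV3 at 0.0015, while NDUFA5, at -0.027, and NDUFB9, at -0.044, kept their sign. With single samples left out, NDUFA10 ranged from -0.0091 to 0.024, NDUFV1 from -0.0080 to 0.037, NDUFV3 from -0.038 to 0.0067, NDUFA9 from -0.041 to 0.021, NDUFA5 from -0.019 to 0.019 and NDUFB9 from -0.036 to 0.00034. Depth limited NDUFV2 and NDUFA7 most.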
